A study of Mus musculus with 13 samples.

Results

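The comparison described here set haematopoietic stem cells (HSCs) with PEM-restricted output, 6 libraries named PEM-HSC, against HSCs with multilineage output, 4 libraries named MUL-HSC, over all genes of the count table. These are 10 of the 13 libraries of the series, chosen by their labelled class. The remaining 3 libraries, PLT-HSC, came from recipients with P-restricted output. In the study, mice received 1 Vwf+ HSC each, and the class of a library describes the blood cells that the transplanted cell had supplied over 16 weeks. PEM is the usual short form in this field for platelets, erythrocytes and myeloid cells, although the labels do not spell it out. All 3 groups share the donor cell type (a single Vwf+ HSC), the strain (C57BL/6) and the sort, which was LSK Flt3- CD150+ CD48- CD45.2+ Gata1- bone marrow cells, with 100 cells per library. The age of the mice is not in the labels. Donor cells of 1 recipient descend from 1 transplanted cell, and whether the libraries of a class came from different recipients is not in the labels. P-values therefore rest on the variation among the libraries, part of which may be technical, and the 3 PLT-HSC libraries enter the shared estimate of that spread. No group in this comparison was untransplanted or untreated, and MUL-HSC is the reference throughout.

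HSCs are rare marrow cells that renew themselves and give rise to all blood lineages, and transplantation of single cells has shown that some of them supply only some of those lineages for long periods. Vwf encodes von Willebrand factor, the adhesive protein that tethers platelets to damaged vessels, and its transcript marks a fraction of HSCs that lean towards platelet output. Because stem cells express low levels of genes of the lineages they can enter (lineage priming), a difference in output could in principle be visible as a difference in lineage transcripts, in stem cell regulators, or in genes of cell division.

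Depth and spike-in shares overlapped between the classes. Gene counts ran from 16371921 to 41367057 in MUL-HSC and from 22913695 to 28013676 in PEM-HSC, and a count of 3 corresponded to 0.0725 to 0.183 CPM (the usual depth-scaled count, taken over a library's total gene counts), the unit of every level below. Total counts, detected genes (11712 ± 407 in MUL-HSC and 11920 ± 214 in PEM-HSC, SD) and the share of spike-in reads (0.0381% and 0.0365%) differed by less than the spread between libraries (two-sided exact permutation tests, p = 0.833, 0.319 and 0.867, all 0.867 after adjustment over the 3, with 0.00476 the smallest p the design allows). Pearson correlations of log2 CPM were 0.762 to 0.813 between classes, 0.769 to 0.807 within MUL-HSC and 0.777 to 0.818 within PEM-HSC. MUL-HSC replicates 1 and 2 stood apart on the first principal component, at -79.2 and -174 against -2.31 to 61.3 for the other 8 libraries, so medians of gene lists below are also given without them. Of the sort markers, Kit (the stem cell factor receptor), Ly6a (Sca-1), Slamf1 (CD150) and Ptprc (CD45) had reads in all 10 libraries, with class means between 89.1 CPM for Slamf1 in MUL-HSC and 731 CPM for Ly6a in PEM-HSC. Transcripts of the excluded markers were detected: Cd48 stood at 59.03, 22.8, 6.84 and 10.6 CPM in MUL-HSC and at 0 in 5 of 6 PEM-HSC libraries, Flt3 at 0.428 to 39.2 and 0 to 5.34 CPM, and Gata1 at 6.17 to 27.6 and 0.75 to 22.4 CPM. They were not low in every library: in MUL-HSC replicate 1, Cd48 lay above Slamf1.

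**Figure D1:**
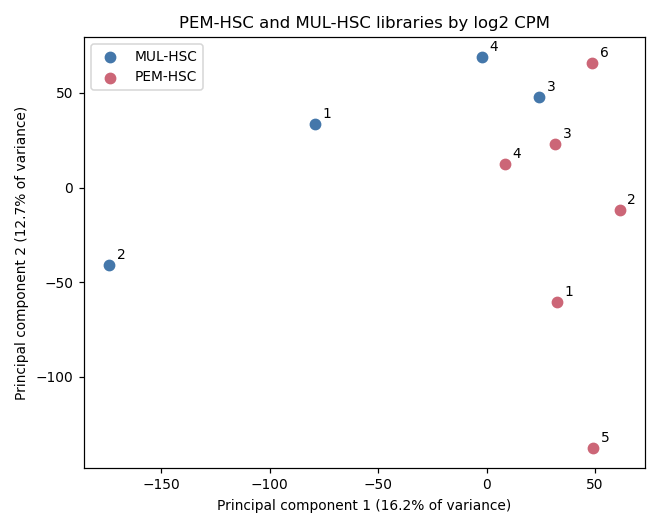
Principal components of log2 CPM over the genes tested, with each of the 4 MUL-HSC (blue) and 6 PEM-HSC (red) libraries as a point numbered by replicate. Component 1 (16.2% of the variance) sets MUL-HSC replicates 1 and 2, at -79.2 and -174, apart from the other 8 libraries, and component 2 (12.7%) sets PEM-HSC replicate 5 apart, at -138.

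PEM-HSC differed from MUL-HSC in 1 of 12536 genes tested (0.00798%) at an adjusted p under 0.05 with edgeR, and that gene was Vwf. A further measure, which needs no model, is whether every PEM-HSC library lay on 1 side of every MUL-HSC library: this held for 108 genes higher in PEM-HSC (0.862%) and 79 lower (0.63%). Before adjustment, 482 genes had p under 0.05 with a higher level in PEM-HSC (3.84%) and 262 with a lower one (2.09%). DESeq2 called 224 genes, 195 higher and 29 lower, 193 of them among the genes edgeR tested (1.54%), and voom called 1, Lpxn. The median log2 fold change over all genes tested was 0.01, and 6351 were positive. Without MUL-HSC replicates 1 and 2, edgeR again called 1 gene, which was Clec7a, and 348 genes lay higher and 430 lower in every PEM-HSC library, where fewer libraries had to be separated. Levels that were not called are given below as values. List members without overlap are to be read beside the shares over all genes tested, 0.862% higher and 0.63% lower.

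Vwf rose in PEM-HSC. It stood at 4.91, 9.42, 13.4 and 12.8 CPM in the MUL-HSC libraries and at 32.4 to 113 CPM (median 81.3) in PEM-HSC. The lowest PEM-HSC library lay well above the highest MUL-HSC library, and the classes did not overlap. The means were 10.1 ± 3.89 and 78.2 ± 32.1 CPM (SD, n = 4 and 6), a 7.72-fold difference. The fitted log2 fold change was 2.94 (SE 0.41) at an edgeR adjusted p of 0.0234 (DESeq2 adjusted p = 3.02e-11). All 6 PEM-HSC libraries were higher, but the call ended without both MUL-HSC replicates 1 and 2 (log2 fold change 2.61, edgeR adjusted p = 0.322) and on leaving out any of 5 single libraries: in MUL-HSC these were replicates 1 (2.72, 0.0682), 2 (2.93, 0.0743) and 4 (3.06, 0.0979), in PEM-HSC replicate 5 (2.85, 0.0833), and in PLT-HSC replicate 2 (2.94, 0.0519), which enters through the shared estimate of spread. It also ended with voom (2.79, adjusted p = 0.405), with the 2 classes fitted alone (edgeR, 2.94, adjusted p = 0.0793) and with the number of detected genes as a covariate (edgeR, 2.97, adjusted p = 0.0729). With replicate number as a block the call ended as well (edgeR, 3.06, adjusted p = 0.0543), although the numbers do not pair the libraries. In these bulk libraries, fewer cells with a transcript and less of it per cell cannot be told apart, for Vwf as for every gene below.

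Other genes of haemostasis were spread to both sides. Of 20 tested genes for Vwf and secreted haemostatic proteins, 10 were positive and the median log2 fold change was -0.15 (-0.01 without MUL-HSC replicates 1 and 2), against 0.01 over all genes. Pf4, the platelet alpha-granule chemokine, stood at 39.7, 39.2, 148 and 170.3 CPM in MUL-HSC and 41.7 to 88.5 CPM (median 58.6) in PEM-HSC, with full overlap. Selp, which encodes P-selectin, the granule protein that brings leukocytes to platelets, stood at 18.4, 57.2, 179.6 and 156 CPM and 104 to 346 CPM (median 236). MUL-HSC replicates 1 and 2 were the low ones there, and replicates 3 and 4 lay inside the PEM-HSC range. Clec1a, a C-type lectin-like receptor counted in this set, lay higher in every PEM-HSC library, at 6.40, 23.7, 57.1 and 47.1 against 70.1 to 148 CPM (median 92.5) (log2 fold change 1.56, SE 0.46, edgeR adjusted p = 0.598).

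Platelet receptors and megakaryocyte regulators were 21 of 28 positive, with a median log2 fold change of 0.36 (0.23 without MUL-HSC replicates 1 and 2). The single member without overlap went the other way: Lat, the adaptor that couples glycoprotein VI and the T cell receptor to their signals, stood at 176, 199, 137 and 160.0 CPM in MUL-HSC and 65.4 to 128 CPM (median 106) in PEM-HSC (log2 fold change -0.74, SE 0.27, edgeR adjusted p = 0.727). Itga2b, which encodes CD41, was low in both classes, at 1.59 to 16.9 and 1.25 to 25.4 CPM, and Gp9, a subunit of the von Willebrand factor receptor, stood at 26.99, 50.3, 58.3 and 30.7 CPM and 28.1 to 97.3 CPM (median 81.2). For Gp9, 4 of 6 PEM-HSC libraries lay above every MUL-HSC library, and replicates 1 and 6 lay inside the MUL-HSC range.

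Another 11 genes ranked next to Vwf by unadjusted p among those higher in every PEM-HSC library, with mean levels of at least 10 CPM. None of them was called by edgeR, while DESeq2 called each of them. Rdh10, a retinol dehydrogenase that makes retinaldehyde, stood at 2.25, 1.35, 0.428 and 4.62 CPM in MUL-HSC and 9.10 to 88.6 CPM (median 47.1) in PEM-HSC. Its lowest PEM-HSC library, replicate 3, still lay above the highest MUL-HSC library, and the log2 fold change was 4.51 (SE 0.76) with an edgeR adjusted p of 0.117. Without replicate 3 the edgeR adjusted p was 0.0398, but leaving out the PEM-HSC library nearest to MUL-HSC favours a call and is no support for one. Gadd45g, a stress-induced protein that restrains the cell cycle, stood at 4.96, 9.92, 17.3 and 31.9 CPM in MUL-HSC and 48.2 to 167 CPM (median 84.02) in PEM-HSC. Its log2 fold change was 2.51 (SE 0.50), with an edgeR adjusted p of 0.227. MUL-HSC values of Gadd45g spanned a wider ratio than those of PEM-HSC.

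Regulators and signalling genes were among the 11. Mllt3 (AF9), a chromatin reader that supports HSC self-renewal, stood at 156, 154, 309.9 and 159 CPM in MUL-HSC and 311 to 559 CPM (median 417) in PEM-HSC. MUL-HSC replicate 3 reached 309.9 CPM and the lowest PEM-HSC library 311.2 CPM, so the separation of the classes was narrow there (log2 fold change 1.11, SE 0.27, edgeR adjusted p = 0.51). Nfkbia, the inhibitor that holds NF-kB in the cytoplasm and is itself an NF-kB target, stood at 163, 151, 189 and 192 CPM and 229 to 373 CPM (median 315), a 1.77-fold difference of means. Phf11d, a member of the PHD finger protein 11 group of genes, stood at 66.3, 38.8, 84.7 and 57.5 CPM and 133 to 242 CPM (median 182), at a log2 fold change of 1.59, SE 0.29, and an edgeR adjusted p of 0.126. Phf11 genes are similar copies, so reads may be shared among them.

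The rest of the 11 serve membrane traffic, protein folding and metabolism. Snap23, a SNARE protein of membrane fusion that platelets need for granule release, stood at 203, 159, 200.2 and 243 CPM in MUL-HSC and 353 to 496 CPM (median 404) in PEM-HSC, a 2.07-fold difference of means. Erp27, a non-catalytic member of the protein disulfide isomerase family in the endoplasmic reticulum, stood at 17.5, 24.04, 63.6 and 49.8 CPM and 74.9 to 197 CPM (median 130.4). Ampd3, the AMP deaminase isoform of erythrocytes, stood at 0.586, 7.95, 2.99 and 7.28 CPM and 15.1 to 62.3 CPM (median 34.02), a 7.91-fold difference of means. Apoe, the lipid carrier apolipoprotein E, which macrophages make in quantity and HSCs also transcribe, stood at 740.3, 463, 700.5 and 479 CPM and 1015 to 1979 CPM (median 1295). The last of the 11, H2-Eb1, is described with its family below.

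**Figure D2:**
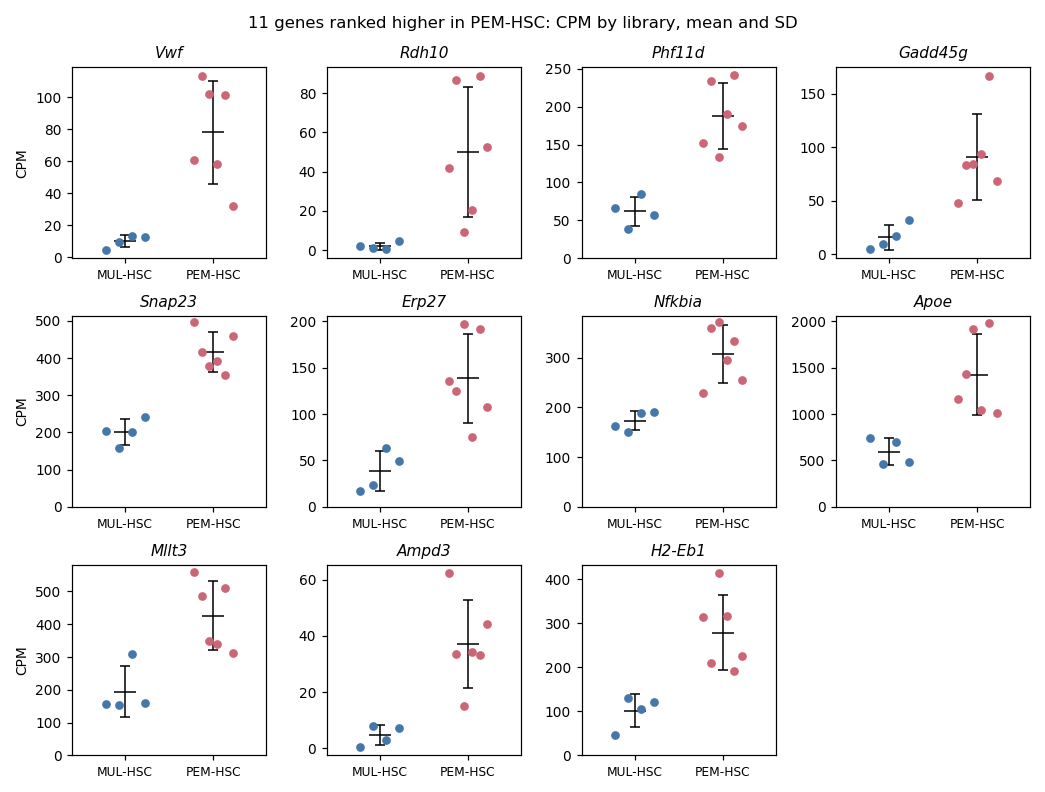
CPM of 11 of the 12 genes that ranked first among those higher in every PEM-HSC library, 1 panel per gene with its own linear axis. Points are libraries (4 MUL-HSC in blue, 6 PEM-HSC in red) and bars are the mean and SD; Vwf, the gene called by edgeR, spans 32.4 to 113 CPM in PEM-HSC against 4.91 to 13.4 CPM in MUL-HSC.

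Rdh10 belongs to the retinoic acid pathway, in which retinol is oxidised to retinaldehyde and then to retinoic acid, a ligand of nuclear receptors that helps keep HSCs quiescent. Of the 28 genes listed for the pathway 16 were tested, and 10 of them were positive, with a median log2 fold change of 0.49 (0.26 without MUL-HSC replicates 1 and 2). Rdh10 was the only tested member of the list without overlap. Cyp26b1, which degrades retinoic acid, stood at 0.0451, 1.23, 3.85 and 6.55 CPM in MUL-HSC and 1.18 to 31.6 CPM (median 17.2) in PEM-HSC, where PEM-HSC replicate 4 was the low one and 5 of 6 libraries lay above every MUL-HSC library (log2 fold change 2.49, SE 1.08, edgeR unadjusted p = 0.035, not called after adjustment). Rarb, a receptor that retinoic acid itself induces, stood at 0.135, 33.4, 23.9 and 54.03 CPM and 23.1 to 83.2 CPM (median 49.5), overlapping. Of the enzymes of the last step, Aldh1a1 stood at 126, 55.8, 205 and 176 CPM and 137 to 272 CPM (median 177), while Aldh1a2 and Aldh1a3 had no read in any of the 10 libraries.

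Major histocompatibility complex (MHC) class II genes encode the alpha and beta chains that present peptides to helper T cells, the invariant chain Cd74 that fills the groove during transport, and the H2-DM and H2-O proteins that edit peptide loading. HSCs transcribe several of them. In PEM-HSC, 11 of 13 were positive, with a median log2 fold change of 0.71 (1.005 without MUL-HSC replicates 1 and 2), and 2 of 13 lay higher in every PEM-HSC library, beside 0.862% of all genes tested. The promoters of these genes share a short control region read by the RFX, CREB and NF-Y factors and the coactivator CIITA, and they are shown because the members' values are set beside each other here. The sequences run from 250 bases before to 50 after the RefSeq start of each gene on GRCm38.p6, 5′ to 3′ on the gene's strand, at chr17:34305617-34305916 (H2-Eb1, plus strand), chr17:34287774-34288073 (H2-Aa, minus strand) and chr17:34152941-34153240 (H2-DMb1, plus strand), with CCAAT or its complement ATTGG, the core letters that NF-Y reads, in capitals.
H2-Eb1: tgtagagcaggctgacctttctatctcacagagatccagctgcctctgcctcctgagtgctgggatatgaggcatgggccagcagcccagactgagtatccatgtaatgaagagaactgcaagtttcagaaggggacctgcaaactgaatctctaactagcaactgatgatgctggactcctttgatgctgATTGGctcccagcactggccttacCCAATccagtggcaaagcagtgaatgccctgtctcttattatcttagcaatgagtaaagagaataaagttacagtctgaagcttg
H2-Aa: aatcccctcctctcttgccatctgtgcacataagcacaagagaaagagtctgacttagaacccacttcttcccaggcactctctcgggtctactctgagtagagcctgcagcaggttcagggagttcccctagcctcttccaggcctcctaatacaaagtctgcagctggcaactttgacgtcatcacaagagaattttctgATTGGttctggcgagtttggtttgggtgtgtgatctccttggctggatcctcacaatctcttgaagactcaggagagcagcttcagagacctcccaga
H2-DMb1: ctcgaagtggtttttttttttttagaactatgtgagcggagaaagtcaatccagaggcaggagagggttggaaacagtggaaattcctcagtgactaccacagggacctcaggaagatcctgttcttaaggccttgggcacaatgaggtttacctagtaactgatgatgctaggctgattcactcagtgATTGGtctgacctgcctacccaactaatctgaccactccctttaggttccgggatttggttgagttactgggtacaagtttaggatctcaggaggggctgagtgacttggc
ATTGG began 59, 48 and 61 bases before the start of H2-Eb1, H2-Aa and H2-DMb1, and H2-Eb1 also held CCAAT at 35 bases. RefSeq promoters were found for 10 of the 13 symbols, 11 promoters in all, and 8 of the 11 (72.7%) held ATTGG on the gene's strand, against 22.1% of 32851 promoters; on either strand the shares were 72.7% and 37.4%. H2-Eb1 and H2-DMb1 also shared a run of 13 bases, aactgatgatgct, beginning 89 and 92 bases before their starts, which was found in 3 of all promoters on either strand, the third being that of Slc39a10. These matches describe letters and are not evidence of binding in these cells.

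The beta chain H2-Eb1 stood at 47.4, 130.0, 105 and 122 CPM in MUL-HSC and 192 to 415 CPM (median 269) in PEM-HSC. The classes did not overlap, and the highest library was PEM-HSC replicate 3 (log2 fold change 1.44, SE 0.35, edgeR adjusted p = 0.51, DESeq2 adjusted p = 0.00356). Cd74 stood at 324, 1427, 1176 and 1059 CPM and 1504 to 4263 CPM (median 2375), with the lowest value in MUL-HSC replicate 1 and the highest in PEM-HSC replicate 1 (log2 fold change 1.29, SE 0.51, edgeR adjusted p = 0.768). The pair H2-Aa and H2-Ab1, alpha and beta chain of the I-A molecule, overlapped through MUL-HSC replicate 2 alone. H2-Aa stood at 255, 682, 397 and 291 CPM in MUL-HSC and 536 to 884 CPM (median 612) in PEM-HSC, and H2-Ab1 at 305, 671, 413 and 367 CPM and 603 to 1046 CPM (median 794). Of the editors, H2-DMa averaged 508 ± 89.8 and 554 ± 98.6 CPM, H2-DMb1 186 ± 58.4 and 249 ± 27.8 CPM, and H2-Oa 27.5 ± 11.6 and 38.4 ± 12.02 CPM in MUL-HSC and PEM-HSC. Ciita itself was low, at 0.856, 0, 0 and 2.20 CPM in MUL-HSC and 0.571 to 11.3 CPM (median 2.12) in PEM-HSC. Summed over the 13 genes, class II transcripts held 1699 to 3752 CPM in MUL-HSC and 3915 to 7229 CPM in PEM-HSC, so the sums did not overlap.

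Macrophage markers lay higher in PEM-HSC beside the class II genes. Of 17 listed markers 12 were tested and 10 were positive, with a median log2 fold change of 2.11 (2.62 without MUL-HSC replicates 1 and 2), and their summed level was 60.2 to 116 CPM in MUL-HSC and 124 to 464 CPM in PEM-HSC. Cd68, a lysosomal glycoprotein of macrophages, was the marker that lay higher in every PEM-HSC library: it stood at 11.4, 11.96, 19.7 and 13.1 CPM in MUL-HSC and 20.6 to 239.8 CPM (median 51.5) in PEM-HSC (log2 fold change 2.49, SE 0.67, edgeR adjusted p = 0.51). Without Cd68 the sums were 40.4 to 104 CPM and 87.7 to 224 CPM, which overlap. Between 7 and 11 of the 17 markers had no read in a MUL-HSC library and between 3 and 7 in a PEM-HSC library. Marco was at 0 in all 10, Emr1 (F4/80) had reads only in PEM-HSC replicate 3 and Timd4 only in PEM-HSC replicate 5, and Siglec1 did not pass 0.0242 CPM. PEM-HSC replicate 3 had the highest macrophage sum, H2-Eb1 and Cd68 levels. Whether macrophage RNA has a part in the levels of Apoe, Cd68 and the class II genes was not tested.

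MHC class I and immunoproteasome genes, which present peptides to cytotoxic T cells, were positive in 16 of 18 tested, with a median log2 fold change of 0.21 (0.25 without MUL-HSC replicates 1 and 2). The class I heavy chains H2-D1 and H2-K1, 2 of 18, lay higher in every PEM-HSC library, beside 0.862% of all genes tested. H2-D1 stood at 1025, 1122, 1424 and 1334 CPM in MUL-HSC and 1493 to 2369 CPM (median 1747) in PEM-HSC (log2 fold change 0.54, SE 0.16, edgeR adjusted p = 0.598). H2-K1 stood at 3339, 3342, 4436 and 3706 CPM and 4481 to 6596 CPM (median 5112), where MUL-HSC replicate 3, at 4436 CPM, came close to the lowest PEM-HSC library at 4481 CPM. The log2 fold change of H2-K1 was 0.47 (SE 0.16), with an edgeR adjusted p of 0.67. The light chain B2m did not separate, at 5322 ± 982 and 5765 ± 971 CPM. These differences were 1.40-fold and 1.48-fold on the means of H2-K1 and H2-D1, and class I genes are close copies that can share reads.

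Interferon response genes were positive in 43 of 50 tested, with a median log2 fold change of 0.47 (0.44 without MUL-HSC replicates 1 and 2), and 11 had an unadjusted p under 0.05, all higher in PEM-HSC. Besides Phf11d, Isg20 and Oas2 lay higher in every PEM-HSC library, so 3 of 50 did, beside 0.862% of all genes tested and 3.84% at an unadjusted p under 0.05 on the higher side. Isg20, an exonuclease that degrades viral RNA, stood at 116, 114, 133 and 85.6 CPM in MUL-HSC and 143 to 228 CPM (median 193) in PEM-HSC (log2 fold change 0.72, SE 0.24, edgeR adjusted p = 0.67). Oas2, an RNA sensor that starts RNase L decay, stood at 12.8, 4.17, 7.15 and 0 CPM and 17.4 to 27.1 CPM (median 23.3). Igtp, an interferon-gamma-induced GTPase, stood at 158, 289, 468 and 328 CPM and 313 to 719 CPM (median 585), overlapping. Other well known members did not share the direction: Isg15 stood at 4.69, 0.0386, 7.76 and 5.90 CPM and 0.996 to 6.70 CPM (median 3.59), and Irf9 at 135, 102, 169 and 251 CPM and 97.03 to 226 CPM (median 131). The receptor chain Ifngr1 averaged 365 ± 81.5 and 391 ± 88.2 CPM.

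Genes reported in other work as higher in HSCs of old mice had the median farthest from 0 among the lists other than cell type markers with all 4 MUL-HSC libraries, but not without replicates 1 and 2, where the medians of MHC class II genes and of granulocyte and monocyte genes were farther. Of 50 tested 45 were positive, 24 had an unadjusted p under 0.05 with a higher level in PEM-HSC and 1, Pclo, with a lower one, and 7 lay higher in every PEM-HSC library. Over all genes tested these shares were 3.84%, 2.09% and 0.862%. Their median log2 fold change was 1.19, and 0.78 without MUL-HSC replicates 1 and 2, with 39 of 50 then positive. Vwf and Mllt3 are members, and Gstm2, a glutathione transferase, stood at 12.8, 49.5, 84.2 and 45.3 CPM in MUL-HSC and 93.9 to 296 CPM (median 175) in PEM-HSC (log2 fold change 1.82, SE 0.48, edgeR adjusted p = 0.51). The others without overlap were Clec1a, Enpp5, Perp and Zg16, with Enpp5 at 105, 206, 342 and 326 CPM in MUL-HSC and 360.4 to 617 CPM (median 460.4) in PEM-HSC. Clu, which encodes clusterin, a secreted chaperone, stood at 0, 0, 14.5 and 44.3 CPM and 30.9 to 589.8 CPM (median 115), with no read in MUL-HSC replicates 1 and 2 and an overlap of replicate 4 with the lowest PEM-HSC libraries. The same pair of MUL-HSC libraries had the lowest summed level of the list, 2593 and 4922 CPM, against 7020.0 and 6588 CPM in MUL-HSC replicates 3 and 4 and 6103 to 11891 CPM in PEM-HSC. Nothing in the labels says that any of the mice were old.

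Transcription factors of HSCs were positive in 26 of 41 tested, with a median log2 fold change of 0.26 (0.14 without MUL-HSC replicates 1 and 2), and Mllt3 and Prdm16 were the 2 without overlap, beside 0.862% of all genes on the higher side. Prdm16, a zinc finger factor that HSCs need for self-renewal, was low, at 0.541, 1.97, 5.92 and 6.16 CPM in MUL-HSC and 6.52 to 35.1 CPM (median 15.7) in PEM-HSC (log2 fold change 2.33, SE 0.85, edgeR adjusted p = 0.727). Mycn stood at 86.97, 48.2, 318 and 165 CPM and 242 to 491 CPM (median 425), where MUL-HSC replicate 3 lay inside the PEM-HSC range. Mecom (Evi1) stood at 43.7, 99.7, 99.01 and 61.6 CPM and 80.00 to 284 CPM (median 96.1), with PEM-HSC replicates 1, 4 and 5 above every MUL-HSC library. Hlf, Runx1, Gata2 and Lmo2 averaged 231 ± 70.8, 67.2 ± 27.03, 82.8 ± 12.1 and 1692 ± 377 CPM in MUL-HSC against 176 ± 51.1, 63.2 ± 11.9, 95.9 ± 20.1 and 2054 ± 307 CPM in PEM-HSC, each with overlapping libraries. Mef2c, a factor of lymphoid and megakaryocytic cells, stood at 148, 188, 128 and 136 CPM and 171 to 312 CPM (median 253), overlapping through MUL-HSC replicate 2 (log2 fold change 0.69, SE 0.20, edgeR adjusted p = 0.595).

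Surface and identity genes of HSCs were positive in 31 of 40 tested, with a median log2 fold change of 0.19 (0.17 without MUL-HSC replicates 1 and 2). No member separated the classes without overlap. Slamf1 stood at 32.2, 60.9, 200.3 and 63.2 CPM in MUL-HSC and 109 to 295 CPM (median 199.6) in PEM-HSC, with MUL-HSC replicate 3 in the PEM-HSC range and the other MUL-HSC libraries below it. Ctnnal1, which encodes alpha-catulin, a marker of HSCs in mouse marrow, stood at 3.65, 9.88, 12.5 and 16.2 CPM and 16.2 to 52.8 CPM (median 31.2); the lowest PEM-HSC library equalled the highest MUL-HSC library to 3 digits (log2 fold change 1.64, SE 0.44, edgeR adjusted p = 0.51, DESeq2 adjusted p = 0.00709). Fgd5, another HSC marker, stood at 17.4, 4.55, 22.4 and 19.7 CPM and 18.9 to 77.2 CPM (median 35.1). Procr (EPCR) averaged 194 ± 51.1 and 207 ± 49.2 CPM, overlapping.

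Genes of multipotent progenitors, the dividing cells just below HSCs, lay lower in PEM-HSC as a group: 15 of 20 tested were negative, the median log2 fold change was -0.92 (-0.64 without MUL-HSC replicates 1 and 2), and 2 of 20 lay lower in every PEM-HSC library, beside 0.63% of all genes. Cd34, the surface sialomucin that separates short-term from long-term HSCs in mice, stood at 555, 449, 90.9 and 379.8 CPM in MUL-HSC and 21.7 to 108 CPM (median 33.2) in PEM-HSC. MUL-HSC replicate 3 lay inside the PEM-HSC range, and Cd34 was not called by edgeR (log2 fold change -2.84, SE 0.51, adjusted p = 0.126) except without that library (log2 fold change -3.15, adjusted p = 0.0242), while DESeq2 gave an adjusted p of 3.33e-06. Leaving out the only overlapping MUL-HSC library favours a call, so the edgeR call without it is no support for a difference. Ctla2a, an inhibitor of cathepsin-like proteases with near-identical copies, stood at 1320.2, 3805, 1006 and 1182 CPM and 164 to 521 CPM (median 345), a drop of means to 0.189 of the MUL-HSC level (log2 fold change -2.45, SE 0.49, edgeR adjusted p = 0.229). Igfbp4, a binding protein of insulin-like growth factors, stood at 149, 93.9, 101 and 131 CPM and 58.4 to 89.5 CPM (median 68.1). Cd27, a receptor of the TNF receptor family that marks progenitors, stood at 227, 272, 184 and 239 CPM and 61.9 to 190.0 CPM (median 148), overlapping. Cd48 and Flt3, excluded as proteins by the sort, belong to this list as well.

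**Figure D3:**
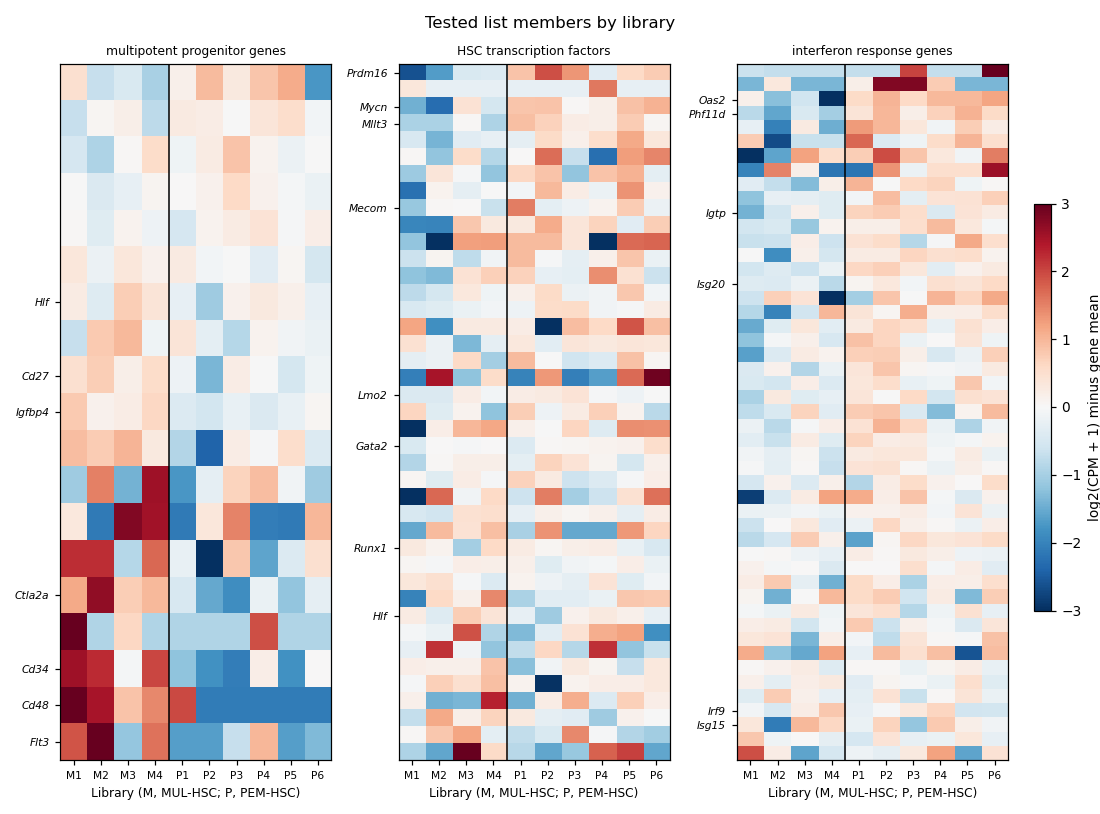
Log2(CPM + 1) minus the gene's mean over the 10 libraries (colour scale ending at -3 and 3) for tested members of the multipotent progenitor, HSC transcription factor and interferon response lists. Columns are libraries (M, MUL-HSC; P, PEM-HSC) parted by a line, each line of cells is a gene, and genes described in the text are named. Ctla2a and Igfbp4 are lower in all 6 PEM-HSC libraries, while Cd34 in MUL-HSC replicate 3 lies inside the PEM-HSC range.

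The other genes that ranked first among those lower in every PEM-HSC library had no common role. Lpxn, which encodes leupaxin, a focal adhesion adaptor of blood cells, stood at 20.5, 27.9, 9.35 and 10.8 CPM in MUL-HSC and had no read in any of the 6 PEM-HSC libraries. Its MUL-HSC mean was 866-fold a floor of 3 counts over the 6 PEM-HSC libraries (edgeR adjusted p = 0.319, voom adjusted p = 0.0129, DESeq2 adjusted p = 7.6e-07). That floor covers counting error only, so the ratio is not a lower bound on the difference. Rab32, a small GTPase of lysosome-related organelles, stood at 338, 358, 362 and 400.3 CPM and 187 to 275 CPM (median 220.1). Set, a histone chaperone and phosphatase inhibitor, stood at 411, 447, 381 and 387 CPM and 234 to 334 CPM (median 302), a difference of -0.49 on the log2 scale. Serpina3g, a serine protease inhibitor with close copies, stood at 1071, 1471, 893 and 1539 CPM and 394 to 773 CPM (median 685). Ramp1, a partner of the calcitonin receptor-like receptor, stood at 1066, 1121, 796 and 729 CPM and 269 to 635 CPM (median 528) (log2 fold change -0.90, SE 0.24, edgeR adjusted p = 0.51).

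Of the remaining lower genes, Tob2, an antiproliferative protein of the Tob family, stood at 34.6, 27.2, 31.9 and 46.5 CPM in MUL-HSC and 2.72 to 14.8 CPM (median 11.2) in PEM-HSC (log2 fold change -1.85, SE 0.55, edgeR adjusted p = 0.598). Rsrp1, a serine-rich nuclear protein, stood at 1242, 788, 689.8 and 872 CPM and 442 to 668 CPM (median 558), and Crip1, a LIM protein, at 135, 122, 107 and 101 CPM and 57.8 to 80.1 CPM (median 74.2). Rabgap1, a GTPase-activating protein of membrane traffic, stood at 60.2, 57.5, 73.8 and 111 CPM and 18.4 to 51.2 CPM (median 36.4). DESeq2 called 10 of these 12 lower genes, and did not call Rabgap1 (adjusted p = 0.0803) and Crip1 (adjusted p = 0.0618). Gpr65, a proton-sensing receptor, was lower in every PEM-HSC library, at 73.8, 72.5, 60.3 and 79.5 CPM against 20.6 to 41.2 CPM (median 27.3). Gpr4, a receptor of the same kind, had no read in MUL-HSC and none in 1 PEM-HSC library, and stood at 0 to 40.1 CPM in PEM-HSC (edgeR adjusted p = 0.126). Its PEM-HSC mean was 677-fold a floor of 3 counts over the 4 MUL-HSC libraries. That floor too covers counting error only and gives no lower bound.

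**Figure D4:**
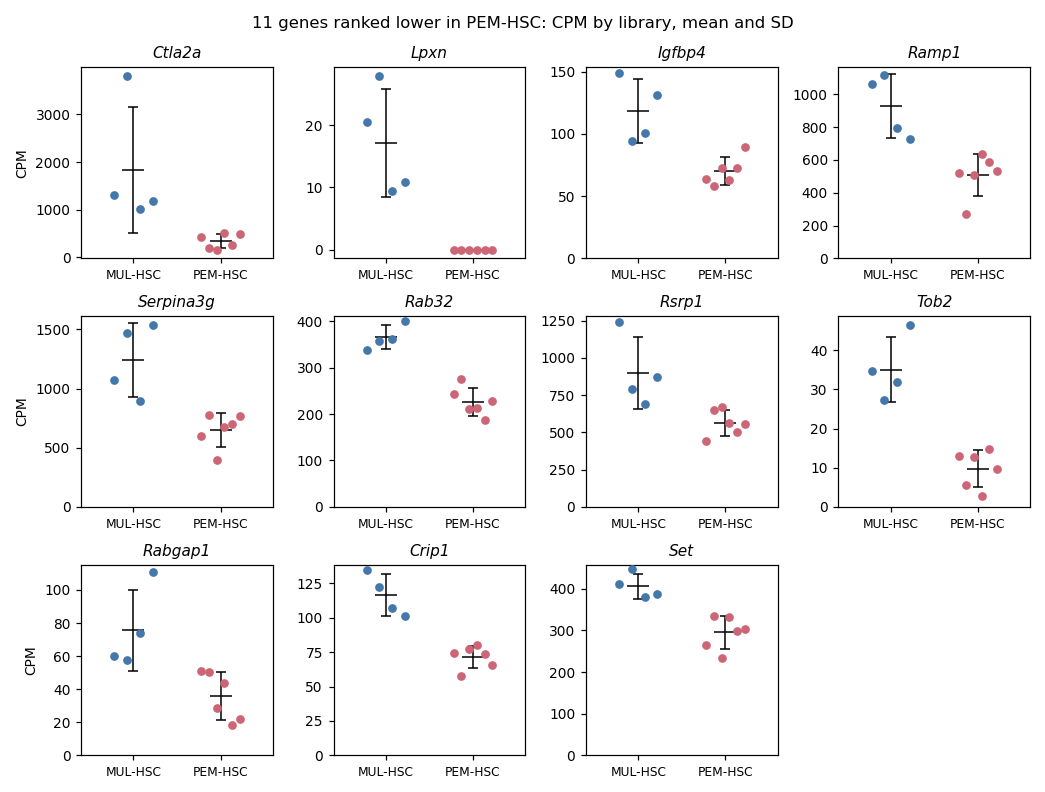
CPM of 11 of the 12 genes that ranked first among those lower in every PEM-HSC library, drawn as for the higher genes. Lpxn is at 0 in all 6 PEM-HSC libraries against 9.35 to 27.9 CPM in MUL-HSC, and no gene shown was called by edgeR over all genes.

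Cell cycle genes were considered by function. Among cyclins, kinases and inhibitors 11 of 26 were positive (median -0.14, and 0.05 without MUL-HSC replicates 1 and 2). The 2 of 26 without overlap, both higher in PEM-HSC beside 0.862% of all genes tested, were inhibitors of division, Gadd45g and Cdkn1c. Cdkn1c, the cyclin-dependent kinase inhibitor p57 that keeps HSCs quiescent, stood at 31.7, 29.8, 40.4 and 31.8 CPM in MUL-HSC and 54.1 to 99.5 CPM (median 87.8) in PEM-HSC (log2 fold change 1.24, SE 0.33, edgeR adjusted p = 0.51, DESeq2 adjusted p = 0.0122). Ccnd1 stood at 15.95, 10.5, 21.3 and 34.9 CPM and 21.00 to 76.1 CPM (median 51.4), while Cdk4 averaged 1142 ± 213 and 965 ± 127 CPM. DNA replication genes were negative in 25 of 26 tested, with a median log2 fold change of -0.37, but this turned to 0.06, with 14 of 26 positive, without MUL-HSC replicates 1 and 2. Cdt1, which loads the replicative helicase, was the 1 member lower in every PEM-HSC library, at 76.1, 35.5, 29.1 and 40.8 CPM against 3.64 to 26.7 CPM (median 17.96) (log2 fold change -1.56, SE 0.75, edgeR adjusted p = 0.859). Mitosis genes were mixed, 14 of 30 positive, with a median of -0.08 that became 0.64 without MUL-HSC replicates 1 and 2, and their summed level ran from 410.5 to 1970 CPM in MUL-HSC and 413.6 to 2797 CPM in PEM-HSC. The lowest sums were those of MUL-HSC replicate 3 and PEM-HSC replicate 2, and the highest that of PEM-HSC replicate 4.

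Priming genes of the lineages were compared because PEM-HSC and MUL-HSC differ in labelled output. Erythroid genes were positive in 11 of 13 tested, with a median log2 fold change of 0.83 (0.67 without MUL-HSC replicates 1 and 2), and none separated the classes. Car2, carbonic anhydrase 2, was the most abundant, at 4696, 5800.3, 4935 and 3939 CPM in MUL-HSC and 5537 to 7574 CPM (median 6439.6) in PEM-HSC, with MUL-HSC replicate 2 inside the PEM-HSC range. Klf1, the erythroid master factor, had at most 0.116 CPM in MUL-HSC and stood at 0 in 3 of 6 PEM-HSC libraries, with up to 7.67 CPM in the others. Granulocyte and monocyte genes were positive in 8 of 13 tested (median 0.44, and 0.94 without those replicates), yet the most abundant, Lyz2 (lysozyme), lay towards lower levels in PEM-HSC, at 1692, 1536, 1113 and 1269.6 CPM against 883 to 1281 CPM (median 1049). Elane had reads in 2 PEM-HSC libraries and in no MUL-HSC library, and Cebpe in none of the 10. Lymphoid genes were positive in 7 of 15 tested, with a median of -0.02 (-0.12 without those replicates). Rag1, Rag2, Dntt and Il7r had no read in any library of either class, so transcripts of the recombination machinery were not detectable at this depth in either class.

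Signalling lists gave few separated genes. Among 28 tested inflammatory and NF-kB genes 15 were positive (median 0.07, and -0.05 with 11 positive without MUL-HSC replicates 1 and 2). The 2 of 28 without overlap, both higher in PEM-HSC beside 0.862% of all genes tested, were Nfkbia and Bcl3 of the IkB family. Bcl3 stood at 9.28, 4.40, 8.25 and 11.4 CPM in MUL-HSC and 17.7 to 62.4 CPM (median 37.3) in PEM-HSC (log2 fold change 2.20, SE 0.61, edgeR adjusted p = 0.516). The NF-kB subunits Nfkb1 and Rela averaged 92.4 ± 49.6 and 45.9 ± 34.7 CPM in MUL-HSC against 74.9 ± 28.1 and 41.7 ± 21.7 CPM in PEM-HSC. Among 28 TGF-beta and BMP genes 16 were positive (median 0.01, and -0.00224 without those replicates), and the co-receptor Tgfbr3 (betaglycan) lay higher in every PEM-HSC library, at 28.7, 33.9, 14.05 and 20.96 CPM against 37.8 to 77.4 CPM (median 59.2) (log2 fold change 1.18, SE 0.35, edgeR adjusted p = 0.598). Among 25 Wnt and Notch genes 16 were positive (median 0.23, and -0.04 with 12 positive without those replicates), and Dll4, a Notch ligand, was higher in every PEM-HSC library at low levels, 0, 0.0386, 0 and 0 CPM against 0.143 to 6.54 CPM (median 2.48). Cytokine receptor and JAK-STAT genes were positive in 16 of 34, G protein-coupled receptors in 18 of 28, and niche retention and adhesion genes in 23 of 36, with medians of -0.01, 0.29 and 0.14 (-0.11, 0.12 and 0.09 without those replicates). Kit and Cxcr4 averaged 312 ± 79.7 and 8.79 ± 0.674 CPM in MUL-HSC against 340.2 ± 91.3 and 6.16 ± 4.16 CPM in PEM-HSC.

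Metabolic and housekeeping genes had medians near 0. Oxidative phosphorylation genes were negative in 38 of 43 tested with a median log2 fold change of -0.15, which became 0.04 without MUL-HSC replicates 1 and 2. Ribosomal protein genes were negative in 41 of 50 (median -0.08, and 0.03 without those replicates), and glycolysis genes positive in 17 of 28 (median 0.10, and 0.05). Rpl3 was the ribosomal gene that lay higher in every PEM-HSC library, at 588 ± 23.2 CPM in MUL-HSC against 674 ± 42.7 CPM in PEM-HSC. Atp5c1, an ATP synthase subunit, averaged 1101 ± 160.2 and 896 ± 165 CPM, and Ldha, lactate dehydrogenase, 1403 ± 223 and 1788 ± 389 CPM in MUL-HSC and PEM-HSC. Metallothionein, glutathione and antioxidant genes were positive in 18 of 33 (median 0.03, and 0.09 without those replicates), although Gstm2 is 1 of them and Mt1, a metal-binding protein, stood at 11.7, 6.79, 131 and 55.7 CPM in MUL-HSC and 87.7 to 247 CPM (median 141) in PEM-HSC. Immediate early genes, which respond within minutes to handling as well as to growth signals, were positive in 13 of 22 (median 0.13), but in 5 of 22 without MUL-HSC replicates 1 and 2 (median -0.22). Dusp1 ran from 108 to 1626 CPM in MUL-HSC and 338 to 1429 CPM in PEM-HSC.

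**Figure D5:**
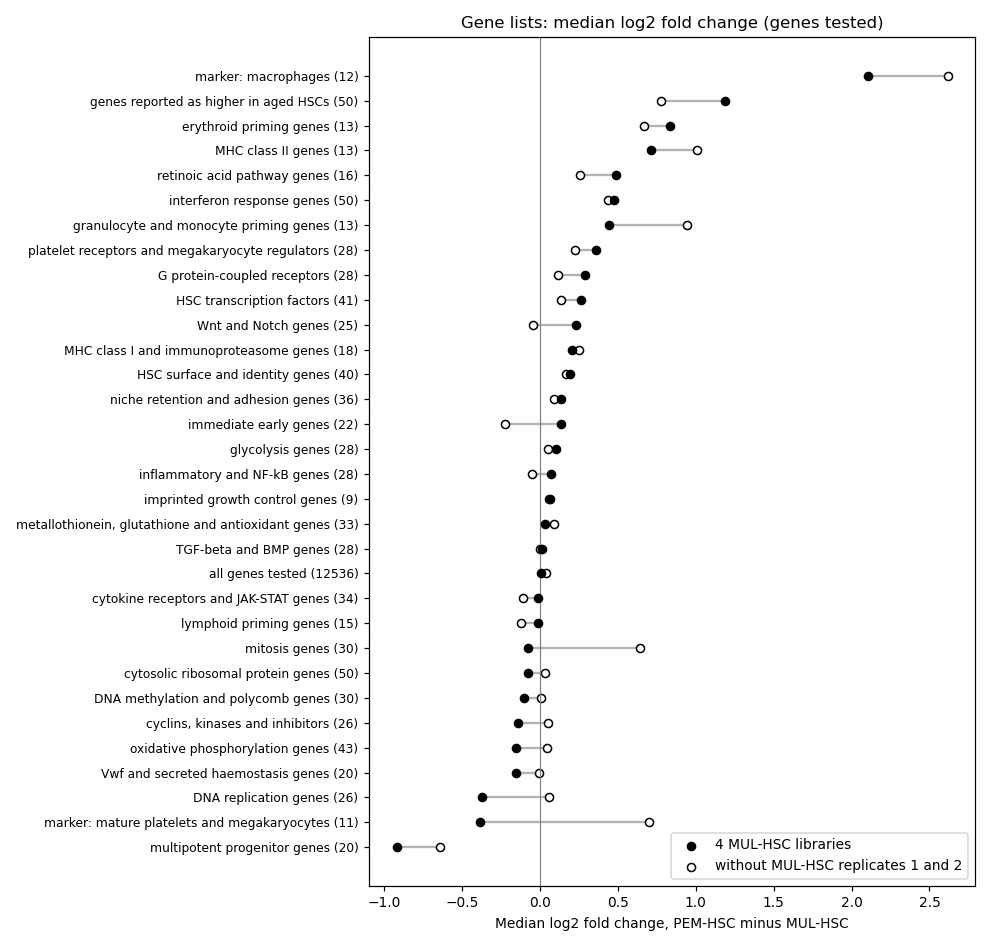
Median log2 fold change, PEM-HSC minus MUL-HSC, of the tested genes of each list with at least 9 of them, for all 4 MUL-HSC libraries (filled) and without MUL-HSC replicates 1 and 2 (open). The number tested is in brackets, and lists with fewer tested genes, all of them cell type markers, are not drawn. Aged-HSC genes (1.19 and 0.78), interferon genes (0.47 and 0.44) and progenitor genes (-0.92 and -0.64) keep their side of 0, while replication and oxidative phosphorylation genes cross it.

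Marker lists of cells other than macrophages overlapped between the classes in their sums. Erythroid cell markers, globins included, were at 0 for 8 of the 11 in all 10 libraries, and PEM-HSC replicate 1 held 60.2 CPM of them through Car1 alone, PEM-HSC replicate 5 held 17.1 CPM and replicate 6 held 5.92 CPM, and the other 7 libraries held 0 to 0.855 CPM. Neutrophil markers summed to 0.991 to 9.15 CPM in MUL-HSC and 0.0357 to 14.4 CPM in PEM-HSC. B and plasma cell markers (110.1 to 168 and 100.8 to 185 CPM), stromal markers (12.3 to 77.7 and 14.5 to 79.6 CPM) and endothelial markers (322 to 518 and 326 to 392 CPM) overlapped between the classes. Markers of mature platelets and megakaryocytes (132 to 325 and 167 to 281 CPM) and of T and NK cells (157 to 249.8 and 113 to 387 CPM) did so as well. Among T and NK cell markers, Klrb1c, which encodes NK1.1, lay higher in every PEM-HSC library, at 0, 0, 30.9 and 0.0483 CPM in MUL-HSC against 39.2 to 221 CPM (median 64.4), while Cd3e had no read in any of the 10. The edgeR adjusted p of Klrb1c was 0.862. Its MUL-HSC value came from replicate 3 almost alone, and without that library the edgeR adjusted p was 0.00308. Leaving out the MUL-HSC library nearest to PEM-HSC favours a call, so that p is no support for a difference.

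PEM-HSC was also set against PLT-HSC directly, since both share the MUL-HSC reference and their distances from it are not independent. Over all genes 0 of 12536 were called by edgeR (0%), with 467 at an unadjusted p under 0.05, while DESeq2 called 133 and voom 1, Fcer2a, which had no read in PEM-HSC. Vwf averaged 78.2 ± 32.1 CPM in PEM-HSC and 136 ± 55.3 CPM in PLT-HSC (3 libraries), at a log2 fold change of -0.78 (SE 0.39) and an edgeR adjusted p of 1. Rdh10 averaged 49.8 ± 33.1 and 121 ± 64.1 CPM in the same order (log2 fold change -1.32, SE 0.65). In the other direction, Ampd3 averaged 37.2 ± 15.5 CPM in PEM-HSC and 14.6 ± 8.06 CPM in PLT-HSC (1.28, SE 0.74). Igfbp4 averaged 70.00 ± 11.1 and 129.6 ± 21.3 CPM, and Rsrp1 563 ± 86.04 and 1172 ± 234 CPM, with log2 fold changes of -0.89 (SE 0.22) and -1.09 (SE 0.21) and edgeR adjusted p of 1 and 0.876. MUL-HSC averaged 119 ± 25.8 CPM of Igfbp4 and 898 ± 241 CPM of Rsrp1. The PLT-HSC means of these 2 genes thus lay above those of MUL-HSC, and the PEM-HSC means below. Genes that missed the threshold here are not shown to be alike in PEM-HSC and PLT-HSC.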

How the data were processed

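Polyadenylated RNA of 100 sorted cells per library was turned into cDNA by Smart-seq+ and tagmented with Nextera XT, per the labels' protocols. The submitters' processing notes name featureCounts, STAR, FastQC and Trimmomatic, with the genome build mm9. Versions, annotation and use of strand are not given in the sources used here. In the deposited table are raw gene counts for 24015 genes and 92 spike-in rows, with no molecular identifiers, so floors (3 counts) cover counting error only. Reads of a gene and an overlapping antisense gene cannot be told apart. Spike-in rows stayed out of totals and tests.

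The 13 libraries were fitted together in edgeR 4.0.16 (R 4.3.3; TMM scaling, filterByExpr, robust quasi-likelihood test, a term for each class, Benjamini-Hochberg adjustment over 12536 genes, threshold 0.05); standard errors of log2 fold changes are the change over the root of F. The common biological coefficient of variation was 0.993. DESeq2 1.42.0 and limma 3.58.1 voom were alternatives, and only the edgeR step was tested on simulated data. No pair of libraries within a class agreed within sampling noise (lowest chi-square per degree of freedom 163). Library measures were compared with exact permutation tests. Replicate numbers recur across classes, but same-numbered libraries did not deviate together (correlations -0.00227, 0.0132, -0.0244 and 0.0113).

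Ranked genes were, in each direction, the 12 with the smallest unadjusted p among genes whose classes did not overlap, with a mean of at least 10 CPM in the higher class and a symbol that is not a gene model. From each of 38 lists, up to 3 called or separated members were named, or else the 2 with the highest mean, and other genes were named after their values were seen. A few genes that these rules name are not reported here. The members and lists were chosen with earlier results of these data known, and lists share genes. Promoter sequences are from RefSeq (GRCm38.p6), a different build from that of the counts.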

Additional observations from a re-analysis of the deposited data

Results flagged for a closer look

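Among 150 groups of the named genes (4 MUL-HSC or 6 PEM-HSC libraries each), 16 held 1 library whose gap to the nearest other library, on the log2 scale, took up more of the group's range than Dixon's critical value. For normal values chance gives about 1 in 20. A group passes by construction where only 1 library has reads, and many of the genes were chosen by their separation. The count is therefore not shown to exceed chance. MUL-HSC replicate 3 was the distant library in 6 of the 16. It was high for Mllt3 (310 CPM against 154 to 159 CPM in the other 3), for Ifitm3, an interferon-induced membrane protein (2240.5 CPM against 1321 to 1447 CPM), for H2-K1 (4436 CPM against 3339 to 3706 CPM), for Cd68 (19.7 CPM against 11.4 to 13.1 CPM) and for Klrb1c (30.9 CPM against 0 to 0.0483 CPM). It was low for Gpr65 (60.3 CPM against 72.5 to 79.5 CPM). In each of these 6 genes it was the MUL-HSC library nearest to the PEM-HSC range or, for Ifitm3, inside it.

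Other MUL-HSC libraries stood apart in 5 groups. Slc14a1, the erythroid urea transporter, was at 31.9 CPM in replicate 1 against 99.5 to 107 CPM. Replicate 2 held 0.0386 CPM of Dll4, 0.193 CPM of Car1 and 4.75 CPM of Igj, the immunoglobulin joining chain, where the other 3 libraries had no read. Ngp, a neutrophil granule protein, was at 0 in replicate 4 against 4.60 to 7.82 CPM.

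In PEM-HSC, replicate 2 was low for Ramp1 (269 CPM against 505 to 635 CPM) and Lat (65.4 CPM against 99.6 to 128 CPM), and it alone had reads of Ngp, at 9.38 CPM. Lsp1, an actin-binding protein of leukocytes, reached 553 CPM in replicate 3 against 265 to 319 CPM, and that library also had the highest summed macrophage markers. Dll4 was at 0.143 CPM in replicate 1 against 1.90 to 6.54 CPM.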

How the results depend on the processing

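The count of genes called between PEM-HSC and MUL-HSC was 1 and became 224 with DESeq2, 0 with the 2 classes alone, 0 with the number of detected genes as a covariate, and 0 to 4 on leaving out 1 library: 0 without MUL-HSC replicates 1 or 4, without replicate 5 of PEM-HSC or without replicate 2 of PLT-HSC, 2 without PEM-HSC replicate 2 or 3, and 4 without MUL-HSC or PLT-HSC replicate 3. With the replicate block it was 0, with 458 genes at an unadjusted p under 0.05 and Vwf at 3.06 (edgeR adjusted p = 0.0543), although the numbers do not pair the libraries. The called gene differed by setting: voom called Lpxn in place of Vwf, and without MUL-HSC replicate 2, or replicates 1 and 2, it was Clec7a. Vwf kept its direction in all 24 settings and passed the threshold in 14. It did not with voom (2.79, adjusted p = 0.405), the 2 classes alone (2.94, 0.0793), the covariate (2.97, 0.0729) or without MUL-HSC replicates 1 and 2 (2.61, 0.322), and single-library omissions gave 2.72 to 3.11. Genes called between PEM-HSC and PLT-HSC numbered 0, 133 with DESeq2, 1 with voom and 0 to 2 on leaving out a library (1 without PLT-HSC replicate 1, 2 without replicate 3). Genes higher in every PEM-HSC library (108) became 348 without MUL-HSC replicates 1 and 2 and 156 to 287 on leaving out 1 library, where fewer libraries have to be separated. Genes lower in every PEM-HSC library (79) became 430 and 107 to 210 in the same way. Differences of library measures turned in sign: total gene counts from -1186020 to 3782760 without MUL-HSC replicate 4 (range on leaving out 1 library -4548960 to 3782760), and the spike-in percentage from -0.00165 to 0.00603 (without MUL-HSC replicate 2), 0.00117 (PEM-HSC replicate 4) and 0.0118 (MUL-HSC replicates 1 and 2), with -0.00800 the lowest value. No named gene changed sign in a called value. The spread between 100-cell libraries, with a biological coefficient of variation of 0.993, limits what 4 against 6 can show, and genes near the floors of 0.0725 to 0.183 CPM are uncertain.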

Other observations

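Single genes of DNA repair separated the classes in either direction, and those named here were chosen after their values were seen. Brca2, which loads the recombinase at broken DNA, stood at 38.9, 31.9, 23.2 and 32.1 CPM in MUL-HSC and 0.867 to 17.1 CPM (median 6.83) in PEM-HSC (log2 fold change -2.15, SE 0.77). Atr, the kinase that senses stalled replication forks, stood at 52.9, 52.5, 36.95 and 37.6 CPM and 7.63 to 28.4 CPM (median 23.2) (log2 fold change -1.18, SE 0.43). Fance, a Fanconi anaemia core protein, stood at 9.06, 15.01, 10.8 and 9.74 CPM and 0.251 to 8.41 CPM (median 5.96) (log2 fold change -1.28, SE 1.06). These 3 were lower in every PEM-HSC library. Xrcc4, a partner of DNA ligase IV in end joining, and Polb, the polymerase of base excision repair, were higher in every PEM-HSC library, averaging 44.1 ± 3.31 and 45.03 ± 8.28 CPM in MUL-HSC against 79.05 ± 15.9 and 81.6 ± 21.7 CPM in PEM-HSC. No repair gene list was tested, and the edgeR adjusted p was 0.727 for Brca2, 0.727 for Atr, 0.999 for Fance, 0.604 for Xrcc4 and 0.727 for Polb.

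The receptor-activity-modifying proteins Ramp1 and Ramp2, which set whether the calcitonin receptor-like receptor answers CGRP or adrenomedullin, separated the classes in opposite directions. Ramp1 was lower in every PEM-HSC library, as given above. Ramp2 was higher, at 0, 0, 28.4 and 11.9 CPM in MUL-HSC and 39.02 to 218 CPM (median 110.5) in PEM-HSC (log2 fold change 3.54, SE 1.40, edgeR adjusted p = 0.768), with no read in MUL-HSC replicates 1 and 2. PLT-HSC averaged 155 ± 103 CPM of Ramp2.

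Several immune genes outside the lists lay higher in every PEM-HSC library and were also chosen after their values were seen. Il18bp, the decoy of interleukin 18, stood at 6.26, 28.8, 52.8 and 58.1 CPM in MUL-HSC and 66.05 to 148 CPM (median 89.99) in PEM-HSC (edgeR adjusted p = 0.67). Clec7a, the fungal glucan receptor dectin-1, stood at 0, 10.3, 0 and 0 CPM and 12.2 to 54.3 CPM (median 34.3), with an edgeR adjusted p of 0.768. Without MUL-HSC replicate 2, the only MUL-HSC library with reads of Clec7a, its edgeR adjusted p was 0.000771. That omission removes the only library that opposed the difference, so this p is no support for it. Slamf8, a SLAM family receptor of myeloid cells, stood at 9.60, 10.7, 7.09 and 2.03 CPM and 18.4 to 46.2 CPM (median 24.8) (edgeR adjusted p = 0.598). Apol9a, an interferon-induced apolipoprotein L gene with a close copy, had no read in MUL-HSC and stood at 0.107 to 11.6 CPM in PEM-HSC, at least 220.2-fold higher on the means (edgeR adjusted p = 0.311). Summed macrophage markers were 60.2 to 116 CPM in MUL-HSC and 124 to 464 CPM in PEM-HSC, and their part in these levels was not tested. Outside immunity, Ocln (occludin, of tight junctions) stood at 7.62, 0.888, 12.3 and 4.93 CPM and 22.7 to 70.8 CPM (median 50.3), and Otos at 158, 129, 114 and 117 CPM and 44.3 to 83.3 CPM (median 72.3), lower in PEM-HSC.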
